A study of Mus musculus with 15 samples.

Results

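The comparison described here set G-CSF-mobilised mouse spleen cells that had been kept for 3 days with stem cell factor (SCF) and Flt3 ligand (title code GFE, 3 arrays) against cells of the same labelled population taken straight from the animals (title code GFW, 3 arrays). These 6 arrays were chosen by their title codes from a series of 15. Both groups came from C57Bl/6 mice given G-CSF. The labels define the starting cells as spleen cells that lacked CD4, CD8, Ly6G, B220 and Ter119 and carried CD11b and CD34. The cultured cells grew in StemSpan, a serum-free medium, with both cytokines, and the design text names the uncultured cells as their input. The other 9 arrays held 3 groups, each with 3 arrays. One group was the same sorted population from C57Bl/6 mice given G-CSF, under another title prefix (RB). Another was the same population from G-CSF-treated mice labelled iNOS knockout (GFK). The last was Ly6C+CD11b+ myeloid-derived suppressor cells (MDSC) grown from C57Bl/6 marrow with the cytokines GM-CSF, IL-13 and also G-CSF. The labels give no age or dose, and they do not say whether the arrays of a group came from separate mice, so the spread between arrays may be technical. No array held the starting cells cultured without SCF and Flt3 ligand. Time in culture, the medium, the addition of SCF and Flt3 ligand and the end of G-CSF exposure therefore cannot be told apart.

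SCF binds the receptor tyrosine kinase KIT and Flt3 ligand binds FLT3, and both receptors drive growth and survival of early blood progenitors through RAS, MAP kinase and PI3 kinase signalling. G-CSF acts on neutrophil precursors through its receptor CSF3R and STAT3, and it releases progenitors and maturing granulocytes from the marrow into blood and spleen. Neutrophil maturation runs in steps in which the primary, secondary and tertiary granule proteins are made one after the other while the cell leaves the cell cycle.

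Values are log2 signals on a single-colour array after RMA, and a difference is the GFE mean minus the GFW mean on that scale. Array medians lay between 5.52 and 5.72 log2. Correlations between arrays over all genes tested were at least 0.981 within GFW and at least 0.989 within GFE, and they lay between 0.726 and 0.732 across the groups. A level is not compared between genes, since probe sets differ in brightness. Where a group lay at or below the 40th percentile of each of its arrays, a fold change is given as a lower bound ("at least"). Where only some arrays of the dimmer group lay there, the measured difference is given, and its size is uncertain. That held for 2 of the 3 arrays at Tlr13, Slfn4, Trem1, Cd36, Lss and Prim1, and for 1 at Cxcr2, Fpr2, Chil3, C1qb, Cxcl9, Elane, Cd8a, Ctla2a, Hoxa9 and Ttk. In RNA from many cells, fewer cells of a type and less RNA per cell cannot be told apart. A difference was called at a Benjamini-Hochberg adjusted p below 0.05 in limma, over 14822 genes tested of 22180 with a probe set. The verbs "rose" and "fell" are used of called genes.

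The uncultured GFW arrays went against the Ly6G-negative label. Ly6g, which encodes the neutrophil surface protein used in the gate, stood at 12.21, 12.15 and 12.19 on them and at 12.12, 12.09 and 12.03 on the GFK arrays. It stood at 6.19, 6.25 and 6.38 on the RB arrays, which carry the same labels as GFW. Cxcr2, the chemokine receptor of mature neutrophils, was likewise high on GFW (12.81, 12.90 and 12.65) and lower on RB (7.76, 8.07 and 8.12). The GFW and RB arrays thus carried neutrophil transcripts to different degrees, and Kit differed between them in the same direction, at 11.52, 11.41 and 11.36 on GFW against 5.83, 4.95 and 5.77 on RB. The gene lists and a part of the named genes are therefore also given against the RB arrays, a reference added after the values were seen. That second comparison shares the GFE arrays with the first, so the pair is not independent, and RB arrays also differ from GFE arrays in their title prefix.

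Of the 14822 genes, 5198 were called higher after culture (35.1%) and 4733 lower (31.9%), with a median difference over all genes of -0.06. By at least 2-fold, 2718 were higher (18.3%) and 1324 lower (8.93%). All GFE arrays lay above all GFW arrays at 5497 genes and below them at 5505, and the groups overlapped at 3820. Groups that do not overlap were thus the common case. By the measured difference, large falls outnumbered large rises: 26 genes rose and 119 fell by at least 16-fold, and 1 rose and 68 fell by at least 32-fold. These counts make no use of the lower bounds. The 1 gene was Ctla2b, whose GFW arrays lay in the background range and whose bound was 17.0-fold. In 332 of the genes that were at least 2-fold higher the GFW arrays lay at or below the 40th percentile, as did the GFE arrays in 164 of those at least 2-fold lower. With each array centred on its median, 5783 genes were higher and 3286 lower, 63.8% of the calls being higher in place of 52.3%, and the median of all genes moved to 0.07. Against the RB arrays 4588 genes were higher (31.0%) and 3429 lower (23.1%). Every list count below stands beside these shares of all genes, 35.1% and 31.9% against GFW and 31.0% and 23.1% against RB. The plot of difference against level shows the longer tail on the lower side.

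**Figure D1:**
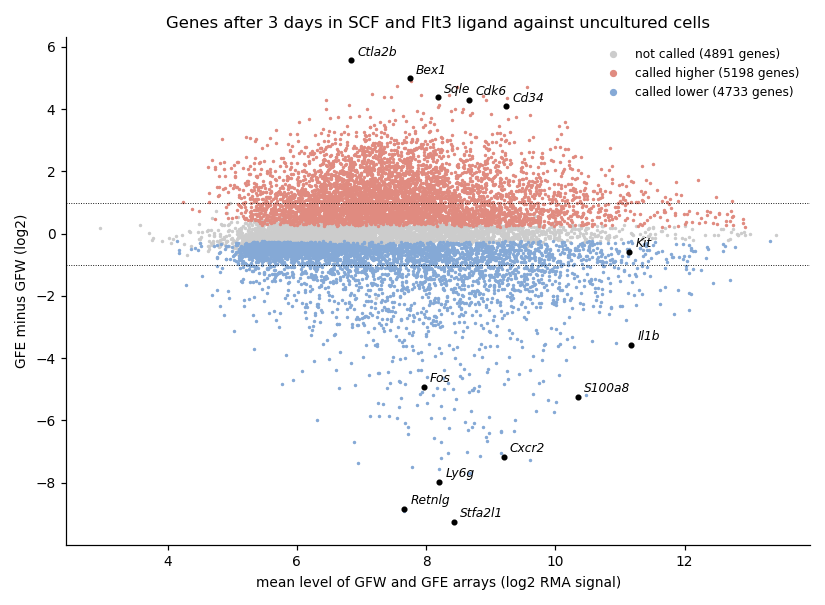
Difference between cultured (GFE) and uncultured (GFW) cells for the 14822 genes tested (vertical axis, log2) against the mean level of the 6 arrays (horizontal axis, log2 RMA signal). Red points were called higher, blue points lower and grey points not called, dotted lines mark 2-fold, and falls reach further from 0 than rises, as at Stfa2l1 and Retnlg.

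Cd34 rose and Ly6g fell. Cd34, the progenitor sialomucin by which the cells were sorted, stood at 7.39, 7.18 and 6.99 on the GFW arrays and at 11.25, 11.31 and 11.29 on the GFE arrays. The groups did not overlap, and the rise was 17.1-fold (log2 difference 4.10, SE 0.16, adjusted p = 4.21e-12). Cdk6, the G1 cyclin-dependent kinase of progenitors, stood at 6.80, 5.90 and 6.85 before culture and at 10.76, 10.80 and 10.89 after it, a rise of 19.7-fold (4.30, SE 0.18, adjusted p = 9.9e-12). One GFW array lay below the other 2 for Cdk6, and all lay far below the cultured arrays. Ly6g dropped to 4.13, 4.17 and 4.36, in the background range, so its fall was at least 112-fold (adjusted p = 1.23e-17). Cxcr2 dropped to 5.81, 5.23 and 5.80, a fall of 144-fold (-7.17, SE 0.15, adjusted p = 4.51e-15). Both neutrophil genes thus separated the groups completely, in the opposite direction to Cd34 and Cdk6, although most genes tested also separated the groups. Against RB the same 4 genes had differences of 5.37, 3.09, -2.06 and -2.37, all called and all in the same directions. Differences from RB are given as measured, here and below, without lower bounds. The size of that of Ly6g is uncertain, since the GFE arrays lay in the background range.

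The rest of the gate moved as follows. Itgam, which encodes CD11b, the integrin chain kept in the sort, read 11.71, 11.62 and 11.67 on GFW and 7.82, 8.01 and 8.0 on GFE, and fell 13.2-fold (adjusted p = 3.15e-14). All 3 cultured arrays lay below all uncultured ones. Ptprc, the pan-leukocyte CD45 gene whose B220 form marks B cells, fell by 1.82 log2. Cd4 was not called (-0.13, adjusted p = 0.493) and Cd8a fell by 0.76 from a low level (6.10 to 5.35), a fall not seen against RB (-0.01, adjusted p = 0.968). Ly6c2, a monocyte surface gene, read 11.55, 11.79 and 11.76 before and 7.71, 6.75 and 7.07 after culture and fell 23.0-fold (adjusted p = 4.02e-12). Cells labelled as CD11b+CD34+ at the start thus had more Cd34 and less Itgam transcript after culture. Against RB, Itgam (-3.44), Ptprc (-1.39) and Ly6c2 (-5.76) were also lower, and Cd4 was not called (0.38, adjusted p = 0.0715). The dot plot of marker, gate and receptor genes shows these values on every array.

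**Figure D2:**
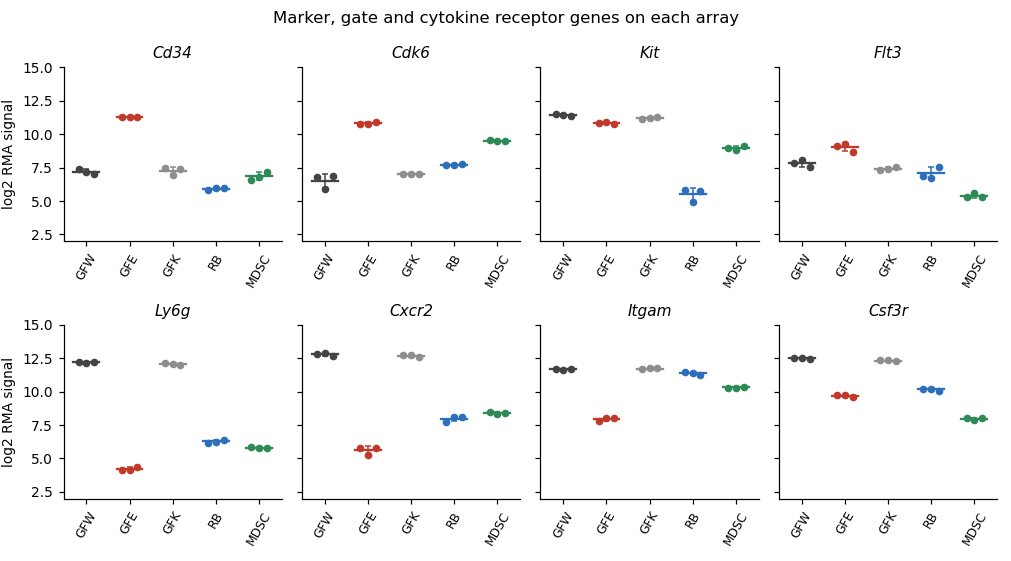
Log2 RMA signal (vertical axes) of 8 genes on each of the 15 arrays by group, with a line at the group mean and bars of 1 SD (n = 3). Cd34 and Cdk6 are highest in the cultured GFE cells, Ly6g and Cxcr2 are high in GFW and GFK only, and Kit is high in GFW, GFK and GFE and low in RB.

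Among receptors of the cytokines used, the 2 targets of the culture moved in different directions. Flt3, the receptor of Flt3 ligand, read 7.87, 8.05 and 7.54 on GFW and 9.15, 9.29 and 8.70 on GFE, a rise of 2.34-fold (adjusted p = 6.62e-05). Kit, the SCF receptor, read 11.52, 11.41 and 11.36 before and 10.87, 10.89 and 10.79 after culture. The groups did not overlap, and Kit fell 1.5-fold (-0.58, SE 0.18, adjusted p = 0.00914). Against RB, where Kit was low, it was 5.33 log2 higher after culture, so its direction turned with the reference. Csf3r, the G-CSF receptor, read 12.55, 12.49 and 12.43 on GFW and 9.76, 9.74 and 9.61 on GFE and fell 6.90-fold (adjusted p = 1.31e-12), whereas its difference from RB was -0.47. Of 16 cytokine receptor genes tested, 2 rose and 12 fell (median -1.49), where 35.1% and 31.9% of all genes did. The 2 that rose were Flt3 and Il3ra, the IL-3 receptor alpha chain (0.95). The largest fall was at Il13ra1, an IL-13 receptor chain, at least 68.4-fold. Beside Csf3r, falls were seen at the IL-6 receptor Il6ra (-2.76), the IL-4 receptor chain Il4ra (-2.69), the interferon gamma receptor Ifngr1 (-2.34) and the M-CSF receptor Csf1r (-1.96). The GM-CSF receptor chains Csf2ra, Csf2rb and Csf2rb2 fell too (-1.47, -1.51 and -1.54). Against RB 2 were higher and 13 lower (median -0.72), and Il3ra was -0.44.

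Of 19 feedback and survival genes downstream of these receptors, 6 rose and 7 fell (median -0.05), shares near the 35.1% and 31.9% of all genes. With each array centred on its median the counts were 7 and 6. Socs3, the STAT3-induced inhibitor of CSF3R and IL-6 family signalling, read 10.95, 11.00 and 10.80 before and 6.21, 6.74 and 6.30 after culture. It fell 22.7-fold (adjusted p = 2.93e-13), with no overlap between the groups. The STAT-induced kinase Pim1 (-1.88), the MAP kinase phosphatase Dusp6 (-2.20), the RAS pathway inhibitor Spry2 (-1.64) and the survival gene Mcl1 (-1.35) fell as well. Rises were seen at the RAS pathway inhibitor Spred1 (2.78), the ETS factor Etv5 (1.72), the survival genes Bcl2a1a (1.56) and Bcl2 (1.22, and 0.28 at its other probe set), and the STAT5 target Cish (0.91). Socs1 was not called (0.11, adjusted p = 0.616). Against RB 10 were higher and 6 lower and the median was 0.52, with Spry2 at 0.69.

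Genes of blood stem and progenitor cells rose together. Of 21 progenitor transcription factors and related regulators tested, 20 rose and 0 fell (median 2.28), where 35.1% and 31.9% of all genes did. A gene could be tested through its signal on the GFE arrays alone. With no filter on signal the list held 23 genes, 20 of them higher and 0 lower, and its median was 1.64. Myb, a factor needed by definitive progenitors, read 7.01, 7.73 and 7.55 on GFW and 11.18, 11.08 and 11.03 on GFE and rose 12.7-fold (adjusted p = 7.23e-11). Erg, an ETS factor of stem cells, read 6.04, 5.62 and 5.96 on GFW and 9.68, 9.20 and 9.63 on GFE, a rise of 12.4-fold (adjusted p = 2.73e-10). Meis1, a partner of HOXA9, read 6.36, 6.53 and 6.21 on GFW and 9.75, 9.94 and 9.97 on GFE and rose 11.4-fold (adjusted p = 2.58e-12). None of these genes overlapped between the groups, which held for most genes tested. Sox4 (4.06), the RNA-binding regulator Msi2 (3.59), Hoxa9 (3.16), the Ikaros family member Ikzf2 (3.15), Myc (2.82), Gata2 (2.42) and Hlf (2.32) also rose. Mecom, the EVI1 gene, rose at least 4.0-fold, and its other probe set had a difference of 0.76. Smaller rises were seen at Tal1 (0.90), Lmo2 (1.21) and Lyl1 (1.25), members of one stem cell factor complex. Runx1 was not called (0.26, adjusted p = 0.072). Against RB 19 were higher and 1 lower (median 2.67), the lower one being Runx1 (-0.48), and Lyl1 was not called (-0.23, adjusted p = 0.135).

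On the surface of progenitors, 13 of 16 genes rose and 2 fell (median 2.36). Adgrg1, the adhesion receptor GPR56 of stem cells, read 6.10, 6.13 and 6.12 on GFW and 10.78, 10.98 and 10.73 on GFE and rose 26.3-fold (adjusted p = 7.69e-12). Angpt1, the TIE2 ligand angiopoietin 1, rose at least 17.4-fold, from 5.33, 5.23 and 5.22 to 9.72, 9.65 and 9.63, although its other, dimmer probe set differed by 0.38. Muc13, a transmembrane mucin, rose from 7.45, 6.93 and 6.86 to 11.43, 11.42 and 11.43, 20.4-fold (adjusted p = 4.61e-10). All 3 genes separated the groups, as did most genes tested. Adgrl4, an adhesion receptor of endothelium (4.06), Cd27, a TNF receptor family member (2.73), Cd93 (2.0), and the sialomucin Emcn (at least 3.87-fold) rose too. The falls were at Kit and at Plac8 (-1.73). Against RB 12 were higher and 2 lower (median 3.08). There Cd93 (-0.26) was not called and Cd48 turned from 0.72 to -1.31.

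The factors of myeloid differentiation fell more often than they rose. Of 15 tested, 3 rose and 9 fell (median -1.13), where 35.1% and 31.9% of all genes did. Id2, an inhibitor of E proteins, read 10.55, 10.67 and 10.62 before and 7.07, 7.18 and 6.99 after culture and fell 11.6-fold (adjusted p = 1.69e-12). Cebpb, the factor of emergency granulopoiesis (-1.97), Irf8, the monocyte and dendritic cell factor (-1.90), Spi1, which encodes PU.1 (-1.62), and Cebpe, the factor of secondary granules (-1.48), fell. Cebpa (-0.23, adjusted p = 0.241) and Gfi1 (-0.08, adjusted p = 0.574) were not called. Tfec, an MITF family factor, rose (3.50), as did Maf (0.94), whose other probe set differed by -0.08, and Runx3 (0.77). Against RB 3 were higher and 10 lower (median -1.26), and Cebpd turned from -1.13 to 0.77.

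Every DNA replication gene tested rose, where 35.1% of all genes did. The list held 27 genes, all called higher, with a median of 2.32 and a range from 0.95 (Fen1, the flap endonuclease) to 3.75 (Prim1, the primase subunit). Mcm6, a subunit of the replicative helicase, read 7.57, 7.64 and 7.25 on GFW and 10.75, 10.74 and 10.63 on GFE and rose 9.32-fold (adjusted p = 2.55e-11). Rrm1, the large subunit of ribonucleotide reductase, read 6.63, 7.29 and 6.98 on GFW and 10.11, 10.35 and 10.23 on GFE, a rise of 9.63-fold (adjusted p = 3.79e-09). Pcna, the sliding clamp, rose from 10.23, 10.30 and 10.18 to 11.82, 11.81 and 11.87 (3.03-fold, adjusted p = 8.01e-10). No pair of arrays from the 2 groups overlapped at these genes, as at most genes tested. The other subunits of the helicase measured, Mcm2, Mcm3, Mcm4, Mcm5 and Mcm7, rose by 2.41, 3.01, 1.81, 2.32 and 2.14. Tipin, a partner of TIMELESS at the replication fork and one of the 15 largest rises, read 5.27, 5.33 and 4.94 on GFW and 9.89, 9.99 and 9.87 on GFE and rose at least 20.7-fold. Against RB all 27 replication genes were also called higher (median 2.22).

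Mitosis genes rose in every case as well, 20 of 20, with a median of 1.84, where 35.1% of all genes rose. Bub1, a spindle checkpoint kinase, read 5.68, 5.89 and 5.68 before and 8.95, 8.71 and 8.86 after culture and rose 8.53-fold (adjusted p = 2.09e-11). Mki67, the Ki-67 proliferation antigen, read 8.55, 8.54 and 8.70 on GFW and 9.89, 9.84 and 9.91 on GFE, a rise of 2.44-fold (adjusted p = 5.34e-06). The kinetochore gene Ndc80 (3.01), the spindle motor Kif11 (2.48), the cytokinesis protein Anln (2.44), the checkpoint kinase Ttk (2.40) and Top2a (2.38) followed Bub1 in size. Plk1 (1.11) and Aurka (1.06), mitotic kinases, had the smallest rises. Against RB 20 of 20 were higher too (median 1.67).

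Regulators of the cell cycle were more mixed, with 12 of 19 higher and 5 lower (median 1.05). Beside Cdk6, its relative Cdk4 read 7.64, 6.93 and 7.06 on GFW and 10.26, 10.40 and 10.25 on GFE and rose 8.55-fold (adjusted p = 2.73e-10). The mitotic kinase Cdk1 (2.57), cyclin A2 (Ccna2, 2.39) and cyclin D2 (Ccnd2, 2.17) rose, while cyclin D3 (Ccnd3, -1.33) and cyclin D1 (Ccnd1, -0.44) fell, the last of them not called without 1 of 2 single arrays. Of the kinase inhibitors, Cdkn1b, which encodes p27, read 10.83, 10.90 and 10.94 on GFW and 8.61, 8.79 and 8.55 on GFE and fell 4.73-fold (adjusted p = 1.72e-11). Cdkn2d, of the INK4 family, fell (-2.62) and Cdkn1a, which encodes p21, rose (1.94). The D-type cyclins and the inhibitors thus moved both ways within each family. Rb1 was not called (-0.04, adjusted p = 0.713), but its other probe set differed by 2.54. Against RB 10 were higher and 5 lower (median 0.32), Cdkn1a was not called (0.26, adjusted p = 0.187) and Ccnd1 was 1.15. Of 10 p53 target and apoptosis genes, Cdkn1a among them, 3 rose and 5 fell (median -0.11, 0.24 against RB, and 5 higher and 4 lower with each array centred on its median), with the BH3-only gene Bcl2l11 at -2.21. The shares of all genes that rose and fell were 35.1% and 31.9%.

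Promoters of these 2 groups are shown because their members moved together, and the array data do not measure binding. Sequences are RefSeq's for GRCm38.p6, and motifs were sought by their letters on both strands in the 250 bases before each gene's start. An E2F site, the element of S phase genes, was sought as TTTNGCGC and as TTCCCGC, and the shorter string is not contained in the longer. The longer form was found in 6 of 23 replication genes with a promoter (26.1%), against 1.31% of 27025 genes, and the shorter in 6 of 23, against 4.38%. CCAAT, the NF-Y box of many mitotic genes, was found in 13 of 17 mitosis genes (76.5%), against 37.5% of all genes. TTTGAA, the core of the cell cycle homology region, was in 5 of 17 (29.4%), against 18.3%. These counts are a description without a test. The Mcm6 stretch runs on the minus strand (chr1:128359756-128359855), 150 to 51 bases before the start. In capitals is 1 of the 2 long E2F matches counted in its promoter, where overlapping matches were not counted. The GCGC in capitals with the gaaa after it also matches on the opposite strand and is not marked. The Bub1 stretch runs on the minus strand (chr2:127831868-127831967), 108 to 9 bases before the start, with its 2 CCAAT boxes in capitals, the first of them read on the opposite strand.
Mcm6: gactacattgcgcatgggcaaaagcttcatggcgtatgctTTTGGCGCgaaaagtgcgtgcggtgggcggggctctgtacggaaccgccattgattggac
Bub1: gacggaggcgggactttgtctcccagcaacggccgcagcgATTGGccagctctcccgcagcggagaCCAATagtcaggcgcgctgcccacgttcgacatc

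Genes that build ribosomes rose without exception among those tested, 17 of 17, with a median of 2.5. Over all genes 35.1% rose. Nop58, a core protein of box C/D small nucleolar ribonucleoproteins, read 7.93, 7.22 and 7.39 on GFW and 10.77, 10.74 and 10.77 on GFE and rose 9.47-fold (adjusted p = 4.38e-11). The nucleolar GTPase gene Gnl3, or nucleostemin, rose by 3.18, the helicase gene Ddx21 by 2.88, the pseudouridine synthase gene Dkc1 by 2.64 and the RNA polymerase I subunit gene Polr1b by 1.51. Npm1, the nucleophosmin gene, rose by 1.26. Against RB 15 were higher and 0 lower (median 1.58), and Pes1 (-0.07) and Bop1 (0.20) were not called. CACGTG, the E-box bound by MYC and other factors, was in the upstream 250 bases of 1 of 15 of these genes (6.67%) and of 6.86% of all genes.

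The sterol pathway was among the groups with the highest median (2.96), and 14 of 15 of its genes rose. Over all genes 35.1% did. Sqle, squalene epoxidase, read 6.28, 5.65 and 6.05 before and 10.30, 10.46 and 10.39 after culture and rose 21.0-fold (adjusted p = 4.83e-12). Hmgcs1, the HMG-CoA synthase at the entry of the pathway, read 7.86, 7.40 and 7.84 on GFW and 11.50, 11.47 and 11.53 on GFE, a rise of 14-fold (adjusted p = 1.4e-11). The groups were apart on all arrays at both genes, as at most genes tested. Cyp51 (4.02), lanosterol synthase (Lss, 3.51), the farnesyl diphosphate synthase Fdps (3.47) and Insig1, a sterol-regulated retention protein (2.93), rose, as did Srebf2, which encodes the factor SREBP2 (1.27). Sc5d was not called (0.04, adjusted p = 0.766). Fads2, the delta-6 fatty acid desaturase and one of the 15 largest rises, read 6.68, 7.02 and 6.30 on GFW and 11.11, 11.20 and 11.00 on GFE (21.7-fold, adjusted p = 2.07e-12). Against RB 15 of 15 sterol genes were higher (median 2.70), Sc5d included (2.09).

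Amino acid supply and stress response genes rose in 12 of 14 cases, with 1 lower (median 1.73). Shmt2, the mitochondrial serine hydroxymethyltransferase of one-carbon metabolism, read 6.50, 6.96 and 6.87 on GFW and 11.00, 11.10 and 11.17 on GFE and rose 19.8-fold (adjusted p = 1.2e-10). Asns, asparagine synthetase, read 8.04, 8.25 and 8.23 on GFW and 10.46, 10.37 and 10.41 on GFE, a rise of 4.73-fold (adjusted p = 4.99e-08). The serine synthesis genes Psat1 (3.11) and Phgdh (1.60), the folate enzyme Mthfd2 (2.42) and the transporter Slc7a5 (2.45) rose. Atf4, the factor at the centre of the response, had a smaller rise (0.73) and Sesn2 fell (-0.44), a call lost without any 1 of 3 single arrays. Against RB 13 were higher and 1 lower (median 2.05), with Sesn2 at 1.14. Of 17 glycolysis and hypoxia genes 7 were higher and 5 lower (median -0.13), near the 35.1% and 31.9% of all genes. Pdk1, which restrains pyruvate entry into mitochondria (1.80), and the carbonic anhydrase Car9 (1.22) rose, and the glucose transporters Slc2a3 (-1.82) and Slc2a1 (-1.70) fell. Against RB the glycolysis median was 0.79, Slc2a3 was 1.67 and Slc2a1 was not called (-0.05, adjusted p = 0.696).

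Stretches of the Hmgcs1 and Asns promoters are shown for the elements known for these pathways. The sterol regulatory element was sought as TCACNCCAC and found in 1 of 11 sterol genes with a promoter (9.09%), Hmgcs1, against 1.22% of all genes. The element bound by C/EBP and ATF4 dimers was sought as TGATGNAA and found in 3 of 13 stress response genes (23.1%), Asns, Chac1 and Slc7a11, against 3.91%. Hmgcs1 is shown on the plus strand (chr13:119690174-119690273), 177 to 78 bases before the start, and Asns on the minus strand (chr6:7693210-7693309), 100 bases up to the start, with the element in capitals.
Hmgcs1: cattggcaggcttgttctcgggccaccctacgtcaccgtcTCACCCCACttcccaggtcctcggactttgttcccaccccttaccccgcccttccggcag
Asns: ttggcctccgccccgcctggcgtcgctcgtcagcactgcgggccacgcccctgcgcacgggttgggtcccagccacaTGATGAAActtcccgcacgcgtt

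The remaining genes among the 15 largest rises had varied roles. Ctla2b, a cysteine protease inhibitor, had the largest, from 3.97, 3.78 and 4.43 to 9.59, 9.67 and 9.64, at least 17.0-fold (adjusted p = 2.09e-11). Its close relative Ctla2a rose from 5.66, 5.16 and 6.30 to 9.95, 10.22 and 10.27, 21.7-fold, and the probes of the pair may read each other's transcripts. Bex1 read 5.19, 5.26 and 5.32 on GFW and 10.03, 10.12 and 10.58 on GFE and rose at least 25.9-fold. The complement C3a receptor gene C3ar1, from 5.34, 5.05 and 5.55 to 10.05, 10.42 and 10.21, rose at least 25.6-fold. Ctla2b, Bex1 and C3ar1 were in the background range on all 3 GFW arrays. Ctla2a was there on 1 of them, so the size of its rise is uncertain. The RAS-related GTPase gene Mras rose at least 14.5-fold and Tnip3, an inhibitor of NF-kB signalling, at least 16.0-fold. The metallothionein Mt2 rose by 4.72 and the activation antigen Cd69 by 4.44. The heat map of the genes with the largest differences shows that several of them, among them Bex1, C3ar1, Tipin, Mt2, Fads2, Sqle and Shmt2, were also high on the MDSC arrays, the other cultured cells of the series.

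**Figure D3:**
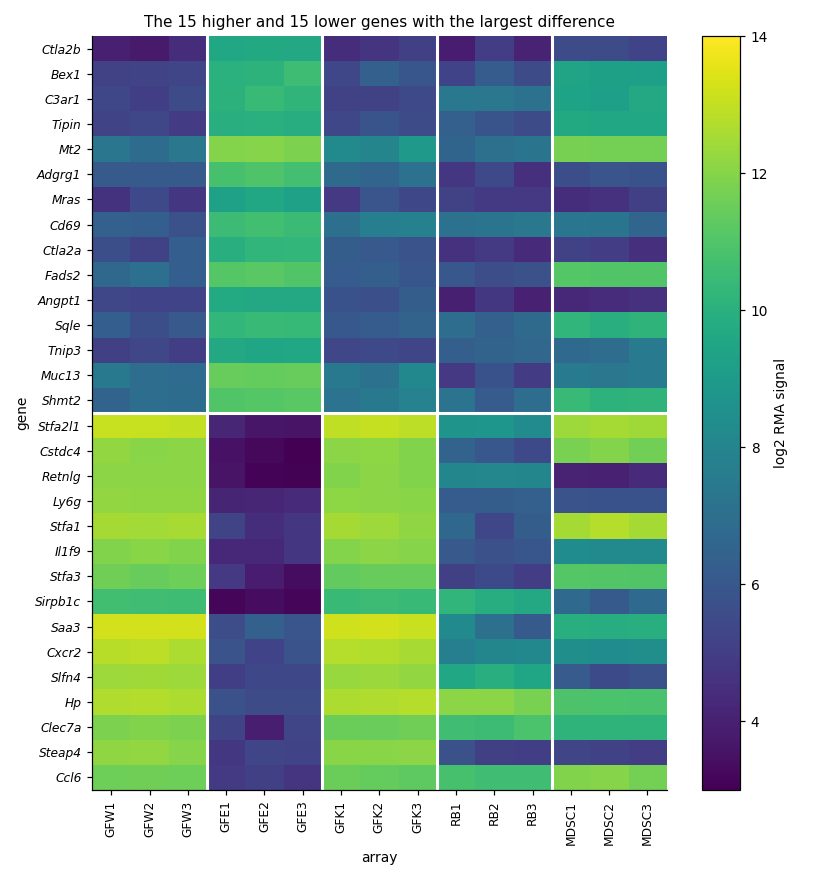
Log2 RMA signal (colour scale) on each of the 15 arrays (horizontal axis) of the 15 higher and 15 lower genes (vertical axis) with the largest difference between GFE and GFW arrays. White lines separate the groups and the 2 directions, the GFK arrays resemble the GFW arrays, and Stfa2l1, Saa3 and Hp are high on both.

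Of the 15 largest falls under the naming rule, 9 were at genes of the mature neutrophil and later granule lists. Those lists held 23 and 20 of the 14822 genes tested and were chosen with earlier results of these data known. The 9 are therefore a description only. All 23 of 23 genes of mature neutrophils tested fell (median -5.55), and 19 of 20 genes of secondary and tertiary granules (median -4.52). Over all genes 31.9% fell. Stfa2l1, a stefin A family protease inhibitor, read 13.09, 13.08 and 13.01 on GFW and 4.18, 3.65 and 3.59 on GFE and fell at least 205-fold (adjusted p = 2.89e-16). Retnlg, a resistin-like secreted protein of granulocytes, read 12.07, 12.09 and 12.09 on GFW and 3.57, 3.09 and 3.06 on GFE, a fall of at least 104-fold (adjusted p = 9.64e-17). Both genes went from high signals to the background range on every array. The relatives Stfa1, Stfa3 and Cstdc4 fell at least 141-fold, 71.2-fold and 107-fold, and probes of this family may read each other's transcripts. The cytokine gene Il1f9 fell at least 96.7-fold, the metalloreductase gene Steap4 at least 108-fold and the decoy receptor gene Il1r2 at least 47.0-fold. The formyl peptide receptor Fpr2 (-6.31), the mitochondrial arginase Arg2 (-4.97), the amplifying receptor Trem1 (-5.55) and the chemokine Cxcl2 (-4.73) fell.

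S100a8, a calprotectin subunit of granulocytes and monocytes, read 12.97, 13.01 and 12.94 before and 7.67, 7.89 and 7.62 after culture, a fall of 38-fold (adjusted p = 1.18e-15). Its partner S100a9 fell by 5.18 log2, haptoglobin (Hp) by 7.06, and the gelatinase and collagenase genes Mmp9 and Mmp8 by 6.53 and 6.34. Lcn2, a secondary granule siderophore-binding protein, stayed high after culture, at 10.33, 10.51 and 10.39 against 11.89, 11.94 and 12.04 (-1.55, adjusted p = 3.74e-06). Fcnb was not called (-0.35, adjusted p = 0.121). Genes of primary granules, which are made first, went both ways, 5 higher and 7 lower of 13 (median -0.74). Among all genes 35.1% were higher and 31.9% lower. Ctsg, cathepsin G, read 6.73, 7.99 and 7.22 on GFW and 10.001, 10.093 and 10.005 on GFE and rose 6.58-fold (adjusted p = 2.75e-07). Elane, neutrophil elastase, fell (-1.40), as did the protease activator Ctsc (-1.44), and Mpo, myeloperoxidase, was not called (-0.38, adjusted p = 0.183). The granule types thus differed in how many of their genes fell, a difference that was not tested.

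These falls depended on the reference in size. The median level of the mature neutrophil list was 11.87, 11.93 and 11.86 on GFW, 8.71, 8.67 and 8.32 on RB and 5.55, 5.90 and 5.77 on GFE arrays, so the reference arrays differed by more than the arrays within either set. Against RB, whose arrays carried less of most neutrophil transcripts than GFW, 19 of 23 mature neutrophil genes were lower and 1 higher (median -1.25). Clec4d turned to 1.29, and Prok2 (0.35), Steap4 (-0.16) and Stfa2 (-0.44) were not called. Steap4 was at or near background in both groups, with means of 5.28 on RB and 5.12 on GFE. Of the secondary and tertiary granule genes 17 were lower and 1 higher (median -2.76), Lcn2 turning to 0.55. For primary granules the counts were 5 higher and 6 lower (median 0.18). C/EBP palindromes, TTGCGCAA on either strand, were in the upstream 250 bases of 0 of 21 mature neutrophil genes and of 0.185% of all genes.

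Macrophage and class II genes mostly fell, while lists of monocyte and dendritic cell genes held both rises and falls. Over all genes 35.1% rose and 31.9% fell. Of 13 genes of classical monocytes, 4 rose and 8 fell (median -0.65). Cd14, the lipopolysaccharide co-receptor, read 11.44, 11.49 and 10.90 on GFW and 6.48, 6.45 and 6.19 on GFE and fell 29.9-fold (adjusted p = 4.55e-13). Chil3 (-4.60) and the chemokine receptor Ccr2 (-2.30) fell, whereas Ms4a6c (3.11) and Ms4a4c (1.52) of the MS4A family rose. Against RB 0 were higher and 12 lower (median -4.47). Ms4a6c was then not called (0.10, adjusted p = 0.669), Ms4a4c turned to -2.80, and Fn1 turned from a rise of at least 1.73-fold to -5.91. Of 9 genes of patrolling monocytes, 4 rose, Cd36, Spn, Cx3cr1 and Pou2f2 (from 1.38 to 2.23), and 4 fell, led by Treml4 (-3.99) and the nuclear receptor Nr4a1 (-2.95). Against RB 1 was higher and 7 were lower, with Cx3cr1 at -0.94 and Spn not called (0.16, adjusted p = 0.294).

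Of 20 macrophage genes 2 rose and 15 fell (median -1.01, and against RB 2 and 14, -1.07). The iron exporter Slc40a1 (-4.42), the complement gene C1qb (-2.90), the adhesion molecule Vcam1 (-2.72) and Adgre1, a macrophage adhesion receptor (-1.91), fell. Spic, a factor of red pulp macrophages (1.85), and the scavenger receptor Marco (1.61) rose. Lysosome genes had a median of -0.48, with 2 higher and 9 lower of 14 (against RB 3 and 9), cathepsins Ctsb (-1.74) and Ctsa (-1.67) leading the falls. Of 15 dendritic cell genes 5 rose and 6 fell (median -0.27, and against RB 4 and 7, -0.42), shares near the 35.1% and 31.9% of all genes. The homing receptor Ccr7 (2.19) and Bst2 (2.44, and 0.06 against RB, not called) rose, and the integrin gene Itgax, or CD11c, fell (-3.60), as did Batf3 (-1.48) and Zbtb46 (-0.69), factors of conventional dendritic cells. MHC class II presentation genes fell in 9 of 11 cases and none rose (median -1.47). H2-Ab1, a class II beta chain, read 11.53, 11.66 and 11.49 before and 9.35, 9.34 and 9.24 after culture and fell 4.74-fold (adjusted p = 9.9e-09). H2-Eb1 (-2.77), H2-Aa (-2.51) and the class II transactivator Ciita (-1.47) fell with it. Against RB 1 was higher, H2-Oa (1.33), whose fall from GFW was not called without 1 of 4 single arrays, and 8 were lower (median -1.42).

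Sensors of microbes fell as a group. Of 17 tested, 16 fell and none rose (median -2.17), where 31.9% of all genes fell and 35.1% rose. Clec7a, which encodes the beta-glucan receptor dectin-1, read 11.83, 11.91 and 11.83 on GFW and 5.24, 3.91 and 5.30 on GFE and fell at least 89.0-fold (adjusted p = 1.84e-12). The RNA sensor Tlr13 read 11.37, 11.36 and 11.49 on GFW and 5.57, 4.34 and 4.56 on GFE, a difference of -6.58 (adjusted p = 1.01e-12) with 2 of the 3 GFE arrays in the background range. The groups did not overlap at either gene, as at most genes tested. Tlr8 fell at least 7.56-fold and the inflammasome sensor Nlrp3 at least 16.1-fold, while Tlr6 (-3.35), Tlr4 (-2.17) and Tlr2 (-1.75) had smaller falls and Tlr9 was not called (0.54, adjusted p = 0.0585). Against RB 1 was higher, Tlr1 (1.19), and 14 were lower (median -1.86). Of 6 Fc receptor genes 4 fell, Fcgr4 at least 50.6-fold and Fcgr3 by 4.15 log2, and 1 rose, Fcgrt (0.64), which was not called without 1 GFW array and was lower against RB (-1.46). Against RB 6 were lower and 0 higher. The mature neutrophil list moved in the same direction as these sensors and receptors, many of which neutrophils and monocytes express, and its part in their falls was not tested. The signal regulatory protein gene Sirpb1c fell at least 37.8-fold, the acute phase gene Saa3 by 7.29 log2, Slfn4 of the Schlafen family by a measured 7.15 and the chemokine gene Ccl6 at least 73.8-fold, all among the 15 largest falls.

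Inflammatory genes moved both ways, 5 higher and 9 lower of 20 (median -0.34), where 35.1% of all genes were higher and 31.9% lower. Il1b, which encodes interleukin 1 beta, read 12.92, 12.97 and 12.96 before and 9.41, 9.38 and 9.38 after culture and fell 11.8-fold (adjusted p = 2.33e-11), and its antagonist Il1rn fell at least 22.1-fold. Ccl3, an inflammatory chemokine, rose from 10.55, 10.24 and 10.37 to 12.60, 12.68 and 12.64, 4.76-fold (adjusted p = 4.31e-11), while Ccr1, one of its receptors, fell at least 40.4-fold. The related chemokine Ccl4 (1.38) and the cytokine Tnf (0.91) rose and oncostatin M (Osm, -2.99) fell. Il1b and Osm thus moved in the opposite direction to Ccl3, Ccl4 and Tnf. Against RB 4 were higher and 14 lower (median -0.56), with Ccl3 at 1.58, Ccl4 at 2.37, Tnf at 0.73 and Il1b at -1.54.

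Type I interferon response genes fell in 12 of 16 cases and rose in 1 (median -0.76, and against RB 2 higher and 9 lower, -0.77). The oligoadenylate synthetase family members Oasl2 (-2.23), Oas2 (-1.68) and Oas3 (-1.37), the nucleic acid sensor Zbp1 (-1.80) and the factor Irf7 (-1.37) fell, and Mx2 rose at least 2.07-fold. Of 14 interferon gamma response genes 3 rose and 6 fell (median -0.25, and against RB 4 and 5, -0.01), with the GTPase gene Iigp1 up at least 5.14-fold and Cxcl9 (-2.35) and Irf1 (-1.78) down. Over all genes 35.1% rose and 31.9% fell. With each array centred on its median, 5 of these 14 genes rose and 3 fell. Receptors that hold progenitors in marrow or guide their release fell in 9 of 14 cases and rose in 1 (median -1.75, and against RB 1 and 10, -1.58). Cxcr4, the receptor for CXCL12, read 11.21, 11.26 and 11.35 on GFW and 9.63, 9.82 and 9.84 on GFE and fell 2.85-fold (adjusted p = 7.41e-09). The integrin chain Itga4 (-1.69), the hyaluronan receptor Cd44 (-1.82) and the selectin ligand Selplg (-2.27) fell, and Itgb1 was not called (0.21, adjusted p = 0.059).

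Immediate early genes, which are also induced when tissue is dissociated and sorted, were lower after culture. Of 19 tested 17 fell and none rose (median -2.49), where 31.9% of all genes fell and 35.1% rose. Fos read 10.32, 10.52 and 10.42 on GFW and 5.49, 5.46 and 5.55 on GFE and fell 30.3-fold (adjusted p = 5.8e-15). Its AP-1 partners Jun (-3.25) and Junb (-3.08), the factor Klf2 (-4.80), the phosphatase Dusp1 (-3.62) and the antiproliferative gene Btg2 (-3.40) fell. Egr3 (-0.10, adjusted p = 0.571) and Hspa1b (-0.12, adjusted p = 0.833) were not called. Against RB 1 was higher, Egr3 (0.76), and 18 were lower (median -2.39). Socs3, Dusp6, Mcl1 and Il1b, named above, moved in the same direction as this list, and its part in their falls was not tested.

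Genes linked to suppression of T cells were mixed, where 35.1% of all genes rose and 31.9% fell. Of 18 suppressor and regulatory genes 2 rose and 9 fell (median -0.41, and against RB 5 and 11, -0.68). Nos2, which encodes iNOS, read 8.09, 8.32 and 8.43 before and 6.57, 6.68 and 6.64 after culture (and 8.84, 8.91 and 8.92 on the arrays labelled knockout) and fell 3.14-fold (adjusted p = 4.84e-09), but against RB it was higher (0.65). Lgals1, galectin 1, rose from 8.33, 8.41 and 8.71 to 11.75, 11.67 and 11.63, 9.20-fold (adjusted p = 5.56e-12). The ectonucleotidase Entpd1, or CD39, fell (-3.71), and Arg1 (-0.45, adjusted p = 0.0562) and Tgfb1 (0.03, adjusted p = 0.82) were not called. Of the phagocyte NADPH oxidase genes 4 of 5 fell, led by Cybb (-1.93), and Ncf1 was not called (0.10, adjusted p = 0.421), while against RB 1 was higher and 4 were lower. Among T cell co-stimulatory and checkpoint ligands, 2 of 12 rose and 6 fell (median -0.39, and against RB 3 higher and 5 lower). Tnfsf4, the OX40 ligand, rose at least 7.08-fold, the checkpoint protein Vsir, or VISTA, fell (-3.60), and so did the co-stimulatory ligands Cd80 (-2.17) and Cd86 (-1.91). Cd274, which encodes PD-L1, was not called (0.30, adjusted p = 0.136) and was 1.31 against RB.

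Markers of other lineages gave few rises, where 35.1% of all genes rose and 31.9% fell. Of 6 mast cell and basophil genes 0 rose and 2 fell, and their histamine enzyme gene Hdc, which neutrophils exposed to G-CSF also express, fell by 5.70 log2. Of 7 eosinophil genes 0 rose and 2 fell, Siglecf (-3.04) and Ccr3 (at least 2.31-fold), neither called against RB (0.09 and -0.39). Of 7 erythroid genes 2 rose, the carbonic anhydrase Car2 (3.70) and the transferrin receptor Tfrc (2.81), and 4 fell, while Gata1 and Klf1 were too low to be tested. Of 10 megakaryocyte genes 3 rose, the thrombin receptor F2r (2.55), Pf4 (0.97, not called without 1 of 2 single arrays) and Itgb3 (0.86, and 0.25 against RB, not called), and Itga2b was not called (-0.16, adjusted p = 0.257). Of 8 B cell and plasma cell genes 1 rose, Cd79b (1.15), and 6 fell, Jchain by 2.69 log2, whose difference from RB was 0.84. T cell and NK cell genes fell in 4 of 8 cases, Klrd1 at least 5.52-fold, and none rose. The medians of these 6 lists lay between -0.69 and -0.03, against -0.06 over all genes. Against RB the counts higher and lower were 1 and 1 for mast cell and basophil, 0 and 0 for eosinophil, 2 and 0 for erythroid, 4 and 1 for megakaryocyte, 3 and 0 for B cell and plasma cell and 1 and 2 for T and NK cell genes. The plot of all lists sets them side by side.

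**Figure D4:**
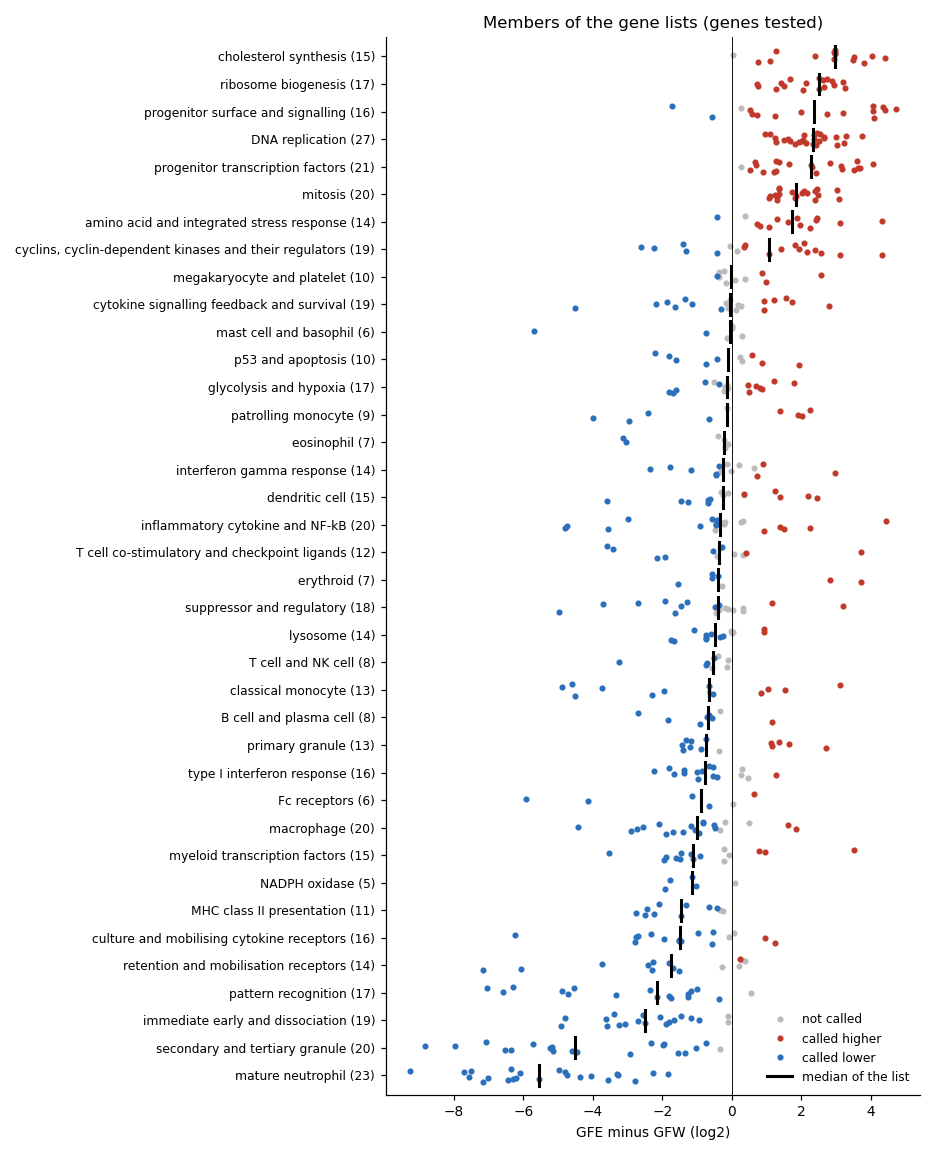
Difference between cultured (GFE) and uncultured (GFW) cells (horizontal axis, log2) for each gene tested of 38 lists (vertical axis, number of genes tested in brackets), ordered by the list's median, which a black bar marks. Red points were called higher, blue points lower and grey points not called, with sterol and ribosome genes at one end and mature neutrophil genes at the other.

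The other groups place the 2 sides of the comparison. On the plot of 12 list medians by array, the GFK arrays lie beside the GFW arrays. The MDSC arrays lay nearer to GFE than to GFW for DNA replication (list median 8.71 against 8.84 on GFE and 6.77 on GFW) and sterol synthesis (9.62 against 10.37 and 7.45). They did not for progenitor transcription factors, at 6.28 against 8.88 on GFE and 6.32 on GFW arrays. Of the 2718 genes that were at least 2-fold higher after culture, the MDSC mean lay nearer to GFE than to GFW in 2082 (76.6%), the RB mean in 894 (32.9%) and the GFK mean in 23 (0.846%). Of the 1324 lower ones it did so in 904 (68.3%), 548 (41.4%) and 9 (0.680%). These counts describe the arrays and were not tested.

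**Figure D5:**
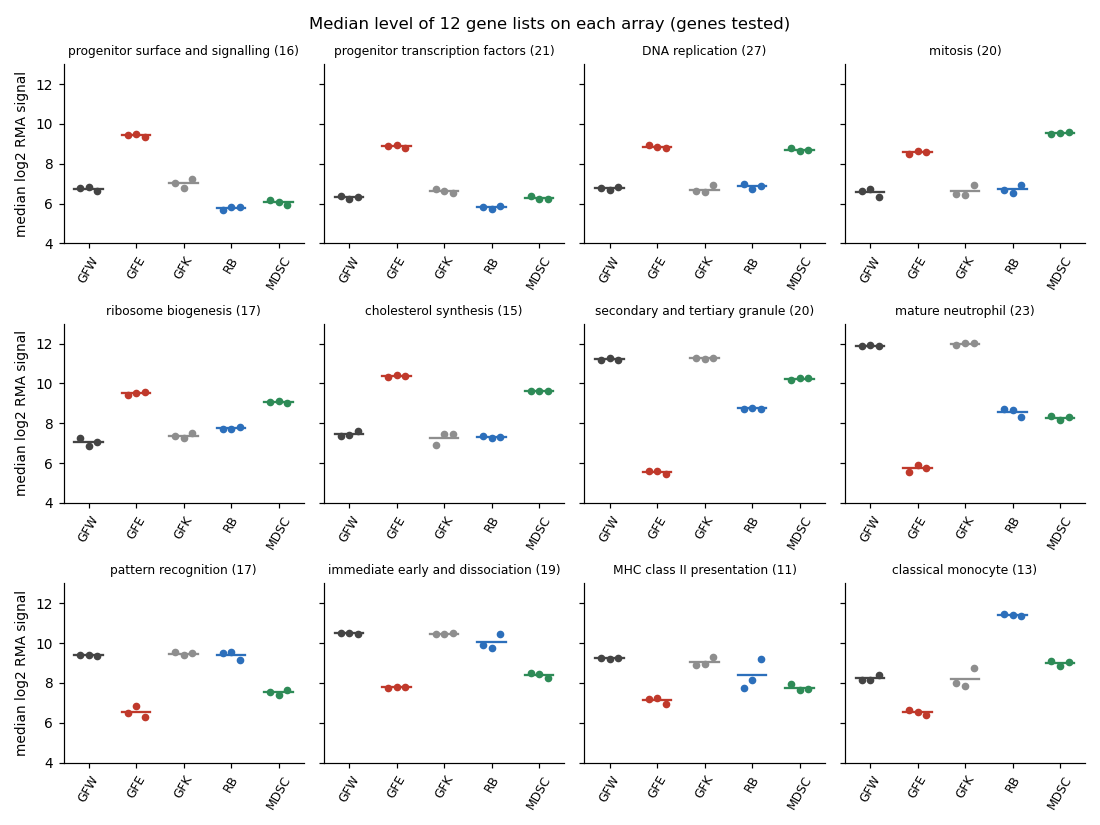
Median log2 RMA signal (vertical axes) of the genes tested in 12 lists on each of the 15 arrays, by group (horizontal axes), with a line at the group mean. The 3 GFE arrays lie above the GFW arrays for the 6 progenitor, proliferation, ribosome and sterol lists and below them for the other 6.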

How the data were processed

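The deposited values are log2 signals, made by the authors with RMA in the oligo package, per the submitters' processing notes. RMA subtracts a background, gives every array the same distribution of values and merges probes into sets, so a shift common to most genes is removed. The sources used here name no version and no annotation build. RNA was extracted with Trizol, and biotinylated cRNA was made from 6 ug of total RNA, per the labels. Of 41345 probe sets, 23521 had 1 gene symbol, 1814 several and 16010 none, and 23328 of the first kind matched RefSeq GRCm38.p6. Where a gene had several probe sets, as 1082 of 22180 genes did, the brightest by its mean signal on the 15 arrays was used. Genes were tested if 3 arrays or more exceeded their own 40th percentile (5.34 to 5.58). That left 14822 genes and took out 7358. Of 591 genes in the 38 lists, 524 were tested, 26 fell under that filter and 41 had no probe set of a single gene.

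The fit used limma 3.58.1 (R 4.3.3) with 1 coefficient for each group of the 15 arrays. It had 10 residual degrees of freedom, and the prior added 5.33. Tests are 2-sided, with Benjamini-Hochberg adjustment over the genes tested. A lower bound sets the brighter group's mean against the 40th percentile of each array of the dimmer group. The 3 arrays a group limit the precision. Python 3.11.15 with pandas 2.3.3, numpy 2.4.6 and matplotlib 3.10.9 prepared tables and figures, and the fit was tested on simulated data.

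Genes named are the 4 markers, the genes of the gate and of the cytokine receptors, the 15 largest rises and 15 largest falls among called genes whose groups do not overlap (without predicted models, clones and receptor segments), and in each list called members with the largest differences and others with their values. The comparison, its members and the lists were chosen with earlier results of these data known.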

Additional observations from a re-analysis of the deposited data

How the results depend on the processing

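The 5198 higher and 4733 lower genes changed by less than 1.5 times under every alternative except the test against a 1.5-fold change (treat), which called 2808 higher and 1425 lower because it asks for a larger difference. Leaving out 1 array at a time gave 4833 to 5014 higher and 4069 to 4327 lower genes, and 2678 to 2799 and 1311 to 1350 by at least 2-fold. With the replicate block 5175 were higher and 4635 lower. The correlations of same-numbered arrays' deviations were 0.03, 0.04 and -0.02, and those of different-numbered arrays lay between -0.05 and 0.02. Whether arrays with the same number share a source cannot be told from them, since an effect on few genes would leave them small. Of 262 genes followed, 244 were called, and 239 of these kept their call without each array in turn. The 5 that did not were H2-Oa (not called without GFE replicate 1, GFE replicate 3, GFW replicate 1 or GFW replicate 3, -0.37, -0.30, -0.33 and -0.35), Sesn2 (GFE replicate 3, GFW replicate 2 or GFW replicate 3, -0.31, -0.43 and -0.39), Ccnd1 (GFE replicate 1 or GFW replicate 2, -0.34 and -0.35), Pf4 (the same arrays, 0.58 and 0.74) and Fcgrt (GFW replicate 1, 0.42). Centring each array lost 4 calls (Ccnd1, H2-Oa, Sesn2 and Tlr1), the 6 arrays alone lost H2-Oa, and the mean of GFW and GFK lost Fcgrt. Treat lost 19 (Atf4, Bop1, Ccnd1, Cd48, Cd8a, Cish, Fcgrt, Fen1, Fn1, H2-Oa, Itgb3, Kit, Maf, Pf4, Runx3, Sesn2, Tal1, Tlr1 and Zbtb46).

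Beside the alternatives planned with the comparison, the RB arrays were tried as the uncultured cells after the values had been seen. Of the called genes 206 kept direction and call, 11 kept direction only and 27 turned in sign, whether called against RB or not. Those below 0 after the turn were Cd48 (-1.31), Cd93 (-0.26), Cx3cr1 (-0.94), Fcgrt (-1.46), Fn1 (-5.91), Il3ra (-0.44), Lyl1 (-0.23), Maf (-0.48), Ms4a4c (-2.80), Mx2 (-1.14), Pes1 (-0.067), Pou2f2 (-0.38) and Runx3 (-0.16). Those above 0 were Ccnd1 (1.15), Cebpd (0.77), Clec4d (1.29), H2-Oa (1.33), Jchain (0.84), Kit (5.33), Lcn2 (0.55), Nos2 (0.65), Prok2 (0.35), Sesn2 (1.14), Siglecf (0.094), Slc2a3 (1.67), Spry2 (0.69) and Tlr1 (1.19). Among the turned genes, Cd93, Lyl1, Maf, Pes1, Runx3, Prok2 and Siglecf were not called against RB. Of genes not called against GFW, Egr3 (0.76), Gfi1 (0.49), Runx1 (-0.48), Tgfb1 (-0.82) and Tlr9 (-1.57) turned as well. With the mean of GFW and GFK as the uncultured cells, Cd274 (-0.455) and Tnf (-0.0303, not called) turned, and with the probe set of highest variance Rb1 did (2.54). The cause of these turns was not tested. Of the 38 list medians 11 turned under 1 alternative or more, those of glycolysis, p53, feedback and survival, primary granule, erythroid, megakaryocyte, B cell, eosinophil, mast cell and basophil, patrolling monocyte and dendritic cell genes, which lay between -0.74 and -0.03 against GFW. No genome position of the probes was used here, so cross-hybridisation within gene families was not checked. Signals near background limit folds to lower bounds.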

Other observations

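Gene families outside the lists were counted by symbol after the values had been seen, with no test of the family. The cytosolic aminoacyl-tRNA synthetases, which load amino acids onto transfer RNA, rose in 18 of 18 cases, with a median difference of 2.01 and a range from 0.42 to 3.90. Their mitochondrial counterparts rose in 10 of 16 cases and none fell (median 0.68). Proteins of the mitochondrial ribosome rose in 57 of 71 cases and fell in 2 (median 1.12), and those of the cytosolic ribosome rose in 49 of 61 and fell in 2 (median 0.67). All 8 subunits tested of the chaperonin containing TCP1, which folds actin and tubulin, rose (median 2.0). Of 36 proteasome subunits 30 rose and none fell (median 0.97), and of 32 subunits of respiratory complex I 24 rose and none fell (median 0.68). These shares stand beside 35.1% of all genes that rose. Among the desaturases and other lipogenic enzymes 11 of 14 rose and 2 fell (median 2.06), with Fads2 at the upper end of the range (4.44).

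Families of myeloid surface receptors fell in most cases. Of 12 CD300 and PILR receptors, paired activating and inhibitory receptors of myeloid cells, 11 fell and none rose (median -3.61, lowest -6.04). Of 22 C-type lectin domain family members 15 fell and 2 rose (median -0.74), the lowest being Clec7a. The Schlafen family, whose members respond to interferon, fell in 5 of 7 cases and rose in 1, with a range from -7.15 to 3.04. The Kruppel-like factors fell in 9 of 16 cases and rose in 2 (median -0.85), with Klf2 lowest at -4.80. The dual specificity phosphatases went both ways, 4 higher and 10 lower of 22, and so did the regulators of G protein signalling, 4 higher and 6 lower of 12. The shares over all genes were 35.1% higher and 31.9% lower.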
